A study of Oryzias latipes with 2 samples.

Results

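Gonadotrope-like cells are a cell type of the medaka pituitary that the authors annotated apart from Lh and Fsh gonadotropes. They were taken here as all cells that the deposited cell tables of the female and the male library annotate as Gonadotrope-like. The rule found 597 cells of 2592 in the female library and 444 cells of 3804 in the male library, 1041 of 6396 cells in all. In each library the cells formed 1 deposited cluster, so the type could not be divided further by the deposited clusters. Since the clusters were made by the authors from the same expression values, differences between this type and other types are a description of the clusters.

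The data are single-cell RNA-seq (10x Chromium 3′ chemistry) of dissociated pituitaries of adult Japanese medaka (*Oryzias latipes*). The fish were of the d-rR *lhb*:GFP line, in which the promoter of *lhb* drives green fluorescent protein (GFP), and all fish carried this transgene. A pool of 24 females gave 1 library and a pool of 23 males gave the other, with an age of about 8 months in the sample labels. With 1 library per sex and pooled fish there is no replicate, so no test across fish was possible. The intervals below are exact 95% intervals that cover counting error only, and a difference between the libraries is not by itself a difference between the sexes.

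Gonadotropes of the vertebrate pituitary make the gonadotropins Lh and Fsh, which act on the gonads. Each hormone joins the common alpha subunit, encoded by *cga*, to a beta subunit of its own, encoded by *lhb* or *fshb*. Thyrotropin shares the alpha subunit and has the beta subunit encoded by *tshba*. In teleosts Lh and Fsh are mostly made by separate cells. The nuclear receptor Sf1, encoded in medaka by *nr5a1b*, is a regulator of gonadotrope genes in mammals.

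A level below is the summed UMI count of a gene over the cells of a type, per 10000 UMIs of that type, where a UMI count is the number of distinct RNA molecules counted. Levels of different genes are not compared, because the capture of each transcript is unknown. The median gonadotrope-like cell held 3920 UMIs in the female library (range 1524 to 23003) and 3641.5 in the male library (1579 to 21464). The medians of the Lh gonadotropes were 4600 and 4731, and those of the Fsh gonadotropes 6639 and 4565.5. When every cell was thinned to 2000 UMIs, the median number of genes detected was 871 in gonadotrope-like cells of each library, against 775 and 654 in Lh gonadotropes and 774 and 768 in Fsh gonadotropes. The hormone genes and GFP took 14.2% of the female and 17.3% of the male UMIs of gonadotrope-like cells, and 26.0% and 39.0% of those of Lh gonadotropes. Of the 16 cell barcodes that occur in both libraries, 3 belonged to gonadotrope-like cells in each, and no count of called genes given below moved by over 1.5 times without the shared barcodes.

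The marker genes of gonadotropes were present in the type to unequal extent. The genes *cga* and *nr5a1b* were above the lactotrope level in the sum and in the median cell. The genes *lhb* and *fshb* were above the range of most lactotropes in a part of the cells. The alpha subunit gene *cga* stood at 522 (interval 519.6 to 525) in the female and 511 (508 to 514) in the male gonadotrope-like cells. In lactotropes, the prolactin cells of the same libraries, it stood at 35.4 and 26.5 and this level was taken as background. The share of cells with a *cga* UMI does not separate the types, since it was 597 of 597 and 444 of 444 gonadotrope-like cells and 192 of 192 and 396 of 397 lactotropes. Lh gonadotropes were higher, at 1009 and 961, and so were Fsh gonadotropes, at 1069 and 831. The gene does not mark gonadotropes alone, since the sums of thyrotropes (979 and 1219) and of the type named *cga*-expressing cells (612 and 788) were above those of gonadotrope-like cells as well. In the median cell the order of thyrotropes turned in the female library, at 194 against 375 in gonadotrope-like cells. It held in the male library, at 874 against 399.6.

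The gene *lhb* was intermediate in both libraries. Its level in gonadotrope-like cells was 148 (146 to 149) in the female and 238 (235 to 239.8) in the male library. Lh gonadotropes held 376 and 689.9, Fsh gonadotropes 21.5 and 168, and lactotropes 11.3 and 14.8. The gonadotrope-like cells thus had the second highest summed *lhb* level of 13 types, below Lh gonadotropes and above thyrotropes (107 and 209.8), with no overlap of the intervals. The thyrotrope sums rested on few cells. A single thyrotrope held 2064 of 3644 *lhb* UMIs in the female and 1992 of 5198 in the male library. The median thyrotrope stood at 11.3 and 18.5.

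The gene *fshb* stood far below its level in Fsh gonadotropes and differed most between the libraries of the 4 subunit genes. It was at 62.2 (61.3 to 63.2) in the female and 17.9 (17.3 to 18.5) in the male gonadotrope-like cells. Fsh gonadotropes held 1326 and 810.2, Lh gonadotropes 19.8 and 13.7, and lactotropes 4.64 and 2.90. Somatotropes and *cga*-expressing cells were above gonadotrope-like cells in the female library (87.8 and 77.8) and below them in the male library (3.07 and 4.62). These female levels rested on single cells, since 1 somatotrope held 3134 of 3467 *fshb* UMIs and 1 *cga*-expressing cell 2341 of 3651, and the median cells stood at 4.84 and 5.21. Among gonadotrope-like cells of the female library the sum also rested on few cells. The cell with the most *fshb* held 2427 of the 15869 *fshb* UMIs, and the 60 cells with the most held 74.7% of them. In the male library the 45 cells with the most held 55.8% of 3205 UMIs, and the highest cell held 152. Without the cells above the 95th percentile of UMIs of their library the female level was 53.8. Relative to Lh gonadotropes the log2 ratio of *fshb* was 1.65 in the female and 0.38 in the male library, and with the scaling described below it was 1.37 and -0.19, so that the male direction depends on the scaling.

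The thyrotropin gene *tshba* was low, at 11.8 (11.4 to 12.2) in the female and 12.2 (11.7 to 12.7) in the male library, against 442 and 710.3 in thyrotropes. Lh gonadotropes held 34.3 in the female and 10.5 in the male library. Relative to them, *tshba* in gonadotrope-like cells was 2.90-fold lower in the female library and 1.16-fold higher in the male library, a direction that turned with the scaling described below (log2 ratio -0.36). In the median cell *tshba* was below Lh gonadotropes in both libraries, at 2.86 against 5.33 and 0.63 against 1.75. The levels of the 4 subunit genes, GFP and *nr5a1b* are shown by cell type in the plots of summed levels and of levels in single cells.

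Within the type the cells were far from uniform. The median cell held *lhb* at 26.1 in the female library, with quartiles of 11.8 and 165, and at 39.4 in the male library, with quartiles of 17.9 and 248. The lower quartiles lie close to the median lactotrope (8.34 and 14.1). For *fshb* the median was 7.99 with quartiles of 3.86 and 34.8 in the female library, and 5.27 with quartiles of 2.51 and 16.8 in the male library. Its 95th percentile in the male library was 85.0, below the 5th percentile of Fsh gonadotropes there (169.6). In the female library it was 252, above the 5th percentile of Fsh gonadotropes (22.0). In contrast, *nr5a1b* varied little, with a median of 23.9 and quartiles of 16.0 and 31.8 in the female library, and a median of 23.4 and quartiles of 15.3 and 29.3 in the male library. The median lactotrope held no UMI of *nr5a1b* in either library.

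**Figure D1:**
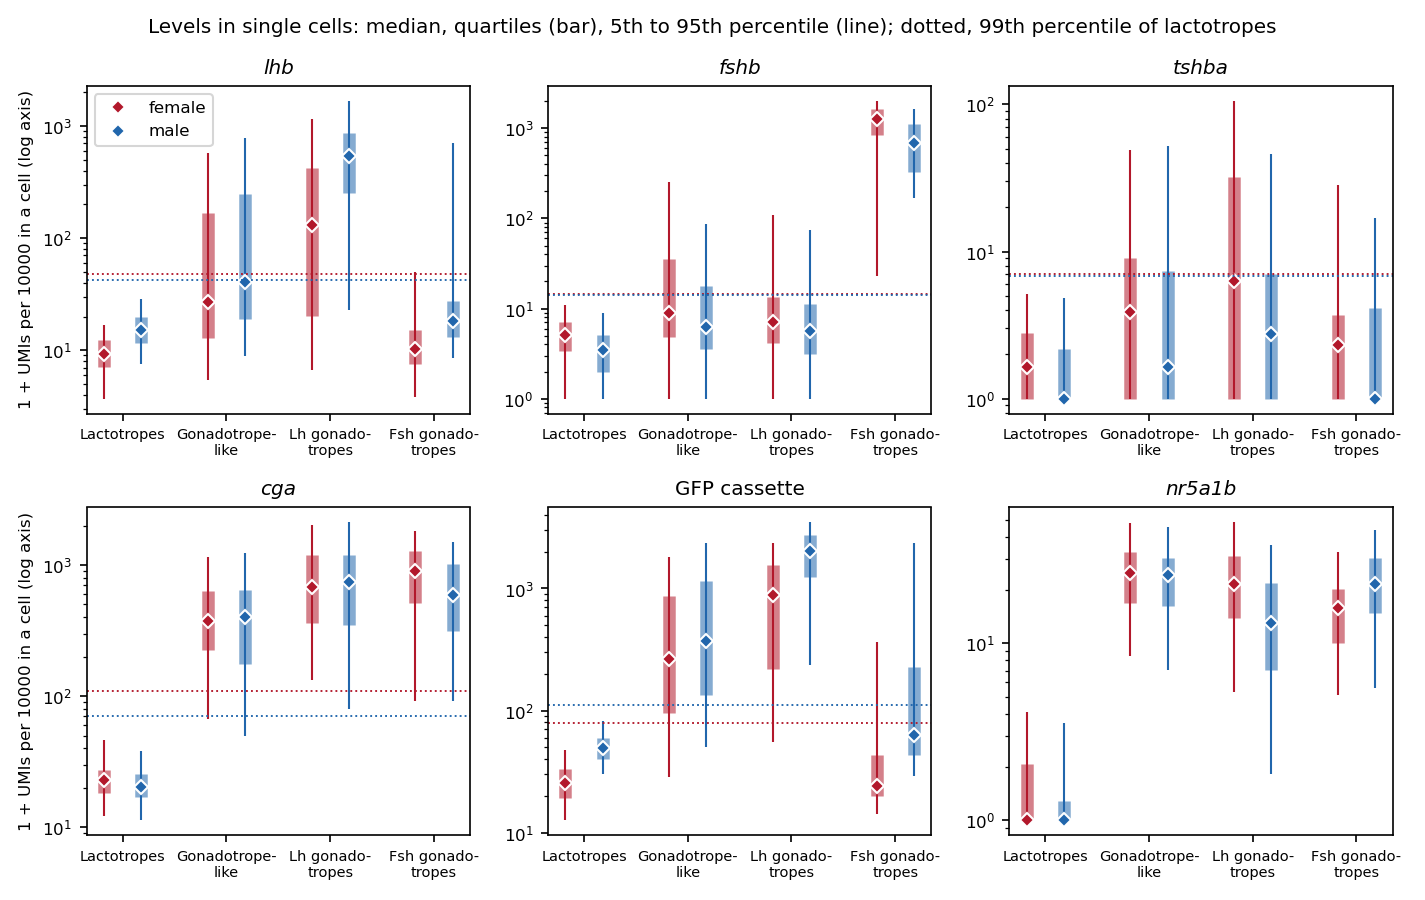
Levels in single cells, as 1 plus the UMIs per 10000 of the cell on a log axis, for lactotropes, gonadotrope-like cells, Lh gonadotropes and Fsh gonadotropes of the female (red) and male (blue) library. Diamonds are medians, thick bars the quartiles, thin lines the 5th to 95th percentile, and dotted lines the 99th percentile of the lactotropes of each library. The *lhb* bar of gonadotrope-like cells crosses the dotted line in both libraries, whereas those of *cga* and GFP lie above it.

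To count cells rather than sums, a cell was taken as above background when its level exceeded the 99th percentile of the lactotropes of its own library, which for *lhb* was 46.6 in the female (192 lactotropes) and 41.2 in the male library (397 lactotropes). By this measure *lhb* was above background in 257 of 597 female gonadotrope-like cells (43.0%, interval 39.0 to 47.1%) and in 219 of 444 male cells (49.3%, 44.6 to 54.1%). The share among Lh gonadotropes was 64.9% in the female and 90.9% in the male library. Thinned to 2000 UMIs per cell, which left out 22 female and 16 male gonadotrope-like cells, the shares were 47.0% in the gonadotrope-like cells of each library and 69.8% and 90.2% in Lh gonadotropes.

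For *fshb*, 214 female cells (35.8%, 32.0 to 39.8%) and 131 male cells (29.5%, 25.3 to 34.0%) were above background, against 23.6% and 20.4% of Lh gonadotropes. Thinned, the shares were 30.6% and 25.2% in gonadotrope-like cells and 15.5% and 16.9% in Lh gonadotropes. For *tshba* the counts were 189 cells (31.7%) and 117 cells (26.4%), and Lh gonadotropes held 47.5% and 25.1%. Thinned, they were 19.3% and 19.2% against 38.0% and 16.4%. The *cga* level was above background in 539 female cells (90.3%) and 403 male cells (90.8%), and in the male library in 84.1% of the thinned cells and 74.6% without the cells above the 95th percentile of UMIs.

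The share of gonadotrope-like cells with a single beta subunit gene above background depended on the threshold. In the female library 362 cells (60.6%, 56.6 to 64.6%) had 1 of the 3 beta subunit genes, and 265 cells (59.7%, 55.0 to 64.3%) in the male library. With the 95th percentile of lactotropes as the threshold these shares were 46.7% and 52.3%, and the shares with at least 2 genes 45.7% and 36.0%. At the 99th percentile, the single gene was *lhb* in 156 female and 139 male cells, *fshb* in 127 and 75 cells, and *tshba* in 79 and 51 cells. In 139 female (23.3%) and 93 male cells (20.9%), again at the 99th percentile, at least 2 of the genes were above background. Among them, *lhb* together with *tshba* was found in 52 and 37 cells, *lhb* with *fshb* in 29 and 27 cells, *fshb* with *tshba* in 38 and 13 cells, and all 3 in 20 and 16 cells. None of the 3 was above background in 96 female cells (16.1%, 13.2 to 19.3%) and 86 male cells (19.4%, 15.8 to 23.4%). Of these, 77 and 72 cells still had *cga* above background.

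These groups of cells differed in depth. Cells with none of the 3 genes held a median of 3234.5 UMIs in the female and 3009 in the male library, and cells with all 3 held 5404.5 and 5319. Depth did not rise at every step, since cells with *fshb* alone held 3182 and 2830. Without the cells above the 95th percentile of UMIs, the female share with at least 2 genes was 30.1%. Thinned to 2000 UMIs, the share with at least 2 genes was 17.6% in the female and 15.0% in the male library, and the share with none was 22.1% and 25.2%. The authors removed the cells with the highest doublet scores before deposit. The part of remaining doublets in the cells with several genes was not tested.

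**Figure D2:**
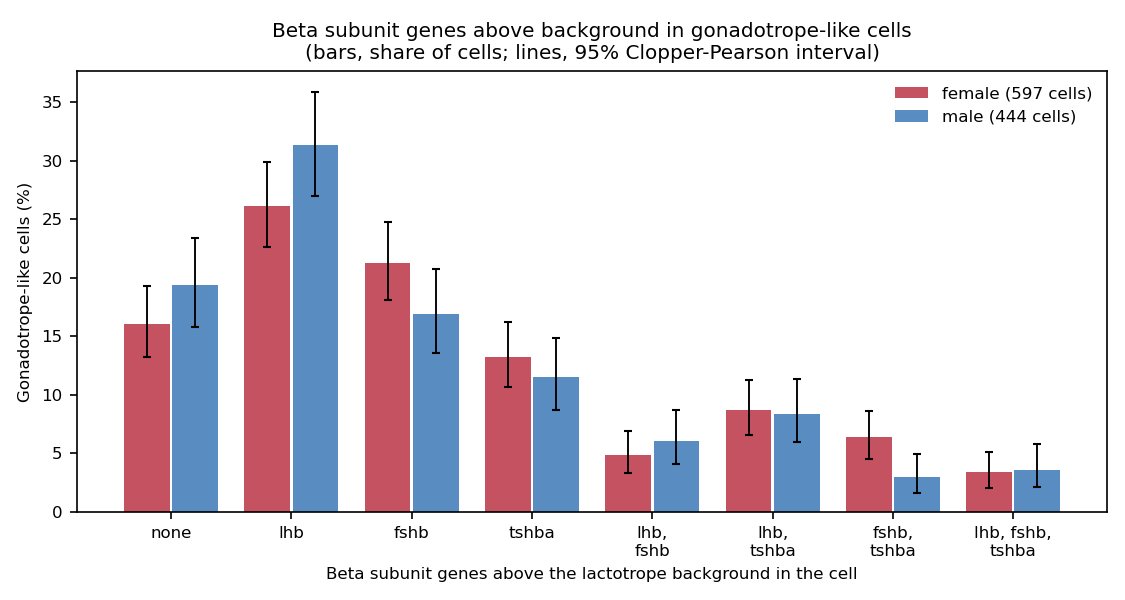
Share of gonadotrope-like cells in percent by the beta subunit genes above the lactotrope background in the cell, for 597 female cells (red) and 444 male cells (blue), with lines for the 95% Clopper-Pearson interval. The 3 tallest groups are *lhb* alone, *fshb* alone and none, and each combination of genes holds under 10% of the cells.

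GFP, driven by the *lhb* promoter, was found in more gonadotrope-like cells than *lhb* itself. GFP was above background in 476 female cells (79.7%, 76.3 to 82.9%) and 347 male cells (78.2%, 74.0 to 81.9%). In 224 female cells (37.5%, 33.6 to 41.5%) and 135 male cells (30.4%, 26.2 to 34.9%) GFP was above background and *lhb* was not, whereas the opposite held for 5 and 7 cells. Among Lh gonadotropes GFP without *lhb* was found in 28.4% (female) and 6.93% (male). Thinned, GFP without *lhb* made up 30.3% and 30.6% of gonadotrope-like cells and 22.7% and 7.44% of Lh gonadotropes. The thresholds for *lhb* and GFP are not matched in sensitivity, and their part in these counts was not tested.

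The ratio of GFP to *lhb* UMIs needs no threshold when taken over a whole type. Over all gonadotrope-like cells it was 4.24 in the female and 3.76 in the male library, against 3.01 and 3.15 in Lh gonadotropes and 3.20 and 3.29 in lactotropes. Other types were not all lower: the ratio was 5.07 and 3.27 in Fsh gonadotropes and 2.70 and 4.56 in red blood cells. In the 340 female and 225 male gonadotrope-like cells with *lhb* not above background, the ratio was 14.7 and 11.3. Their summed *lhb* level was 15.4 and 19.3, somewhat above that of lactotropes (11.3 and 14.8), while their GFP level was 228 and 218. Their median *lhb* level was 12.8 and 18.0, against 8.34 and 14.1 in lactotropes. Their upper *lhb* quartile was above the 95th percentile of lactotropes in the female library (19.4 against 15.8). In the male library it was below (24.8 against 27.9). Part of these cells may thus hold some *lhb*. GFP was above background in 65.9% (60.6 to 70.9%) and 60.0% (53.3 to 66.5%) of these cells. GFP stayed lower in them than in the cells with *lhb* above background, with a median of 121 against 911 in the female and 151 against 1155 in the male library. These cells were picked for a low *lhb* level, so their high ratio is in part fixed by the choice, and the ratio of *cga* to *lhb* UMIs was higher there as well (23.7 against 2.39 and 19.1 against 1.55). Over all the cells of the type, *lhb* and GFP went together, with a Pearson r of 0.76 over 597 female cells and 0.78 over 444 male cells on the log scale, where each cell gives both values from the same UMIs.

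The cells with *lhb* not above background differed from the others in both directions. Their median *nr5a1b* level was 26.2 in the female and 26.0 in the male library, against 21.0 and 20.1 in the cells with *lhb* above background. Their median *cga* level was lower, at 305 against 607 in the female and 331 against 471 in the male library, with the median lactotrope at 22.0 and 19.3. Markers of Lh gonadotropes in the deposited table were lower too, with *crtac1a* at 23.4 against 37.2 and 22.4 against 29.3, and *qpct*, whose enzyme forms pyroglutamate at the start of peptides, at 8.92 against 12.8 and 10.4 against 13.8. Levels of *STMN1*, which encodes the microtubule regulator stathmin, were 34.9 against 22.1 and 29.1 against 16.2. Levels of *cabp5a*, which encodes a calcium-binding protein, were 103 against 80.2 and 101 against 71.1. The 96 and 86 cells with none of the beta subunit genes had median *nr5a1b* levels of 25.2 and 25.1 and *STMN1* levels of 36.4 and 25.8. Their medians were below those of all cells with *lhb* not above background for *crtac1a* (20.7 and 17.0). For GFP they were lower as well (108 and 111). The hormone and GFP transcripts take more of the UMIs in cells with high *lhb*, which lowers the level of every other gene there. The ribosomal protein gene *rpl7* differed in the same direction, at 55.0 against 42.6 in the female and 57.5 against 47.5 in the male library. Depth also differed, with medians of 3524 and 3163 UMIs in the cells with *lhb* not above background and 4520 and 4241 in the others.

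**Figure D3:**
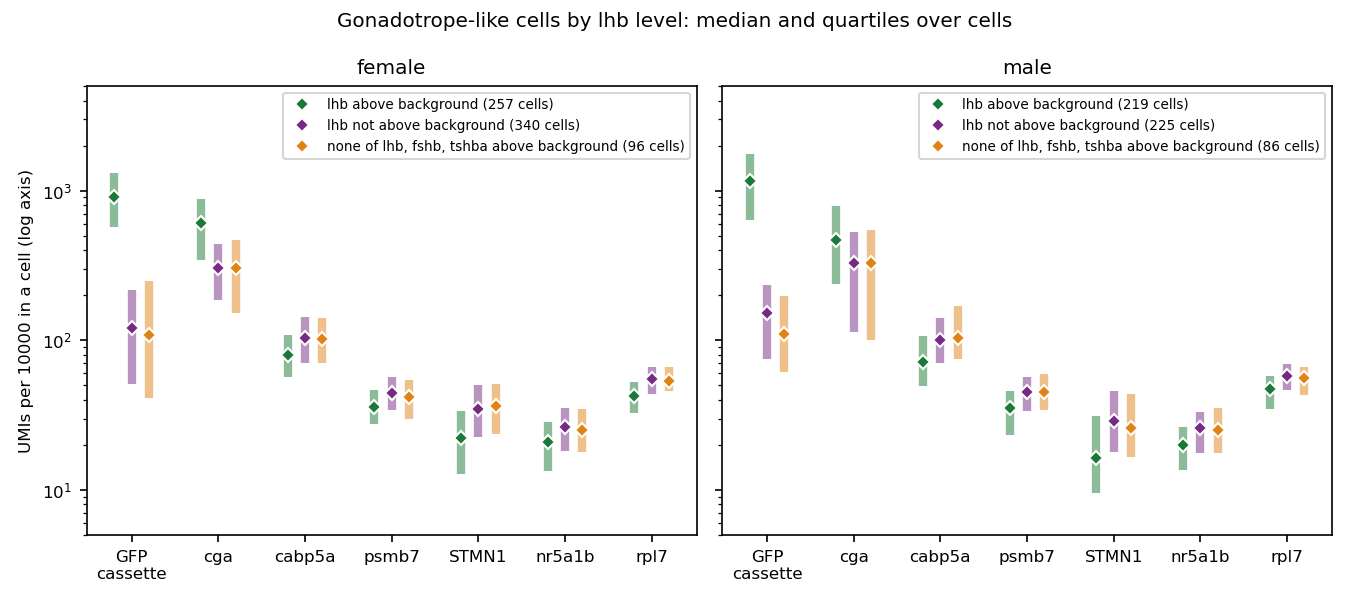
Levels of 7 genes in gonadotrope-like cells, as UMIs per 10000 of the cell on a log axis, with the median (diamond) and quartiles (bar) over cells with *lhb* above background (green), with *lhb* not above background (purple), and with none of the 3 beta subunit genes above background (orange, a subset of the purple cells). GFP and *cga* are highest in the green cells, and the other genes, *rpl7* included, are highest in the purple or orange cells.

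Besides the hormone genes, the deposited male marker table names 5 genes for the type: *psmb7*, which encodes a proteasome subunit, *nif3l1*, *STMN1*, *nr5a1b* and 1 gene with no symbol that the same table also gives for Fsh gonadotropes. They were chosen on the male cells, and the female cells were assigned to the type from their own expression values, so the levels in neither library are independent of the choice. Their summed level was 156 in female and 145 in male gonadotrope-like cells, 117 and 78.0 in Lh gonadotropes, and 88.4 and 101 in Fsh gonadotropes. *STMN1* stood highest of the 13 types in both libraries, at 30.0 (29.3 to 30.7) and 23.9 (23.2 to 24.7), followed by Lh gonadotropes in the female library (19.7) and Fsh gonadotropes in the male library (13.0). *nr5a1b* was highest at 24.4 and 21.8, followed by Lh gonadotropes at 20.4 and Fsh gonadotropes at 19.1. *psmb7* was highest at 41.5 and 39.4, followed by 35.5 and 32.1 in the same types.

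For *nr5a1b* in both libraries and *psmb7* in the female library, the lead did not outlast a change of the total. Per 10000 UMIs without the hormone genes and GFP, female *nr5a1b* was at 28.4 (27.7 to 29.1) in gonadotrope-like cells. In Lh gonadotropes it was at 27.5 (26.8 to 28.2). Female *psmb7* was at 48.4 (47.5 to 49.3) and 48.0 (47.1 to 48.9), and both pairs of intervals overlapped. Male *nr5a1b* was at 26.4 (25.6 to 27.2) against 25.2 (24.1 to 26.3) in Fsh gonadotropes, again with overlap. Male *psmb7* stayed ahead, at 47.6 (46.5 to 48.7) against 42.5 (41.1 to 43.9) in Fsh gonadotropes. With TMM scaling, described below, the female log2 ratios of *nr5a1b* and *psmb7* to Lh gonadotropes turned from 0.26 and 0.23 to -0.03 and -0.06, and the male ratio of *nif3l1* from 0.51 to -0.06. Per UMIs without the hormone genes and GFP, *STMN1* kept its lead, at 35.0 against 26.6 in the female and 28.9 against 17.6 in the male library. *nif3l1*, at 36.5 and 38.3 per 10000 of all UMIs, was level with the *cga*-expressing cells in the female library (37.6, intervals overlapping) and highest in the male library. *cabp5a*, at 94.9 and 91.6, was second to the *cga*-expressing cells (311 and 282). In the RefSeq annotation of assembly ASM223467v1, *cabp5* and *nif3l1* lie next to each other with no gene between, and reads of neighbouring genes may be assigned to either.

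Which gonadotrope type was most like the gonadotrope-like cells depended on the measure in the male library. Over 7483 genes in the female and 8391 in the male library, the Pearson r of log2 levels was 0.982 and 0.978 with Lh gonadotropes and 0.945 and 0.964 with Fsh gonadotropes. The median absolute log2 difference per gene was 0.211 to Lh and 0.310 to Fsh gonadotropes in the female library, but 0.332 and 0.254 in the male library, where Fsh gonadotropes were closer by this measure. This difference is per all UMIs and includes any shift common to most genes. Among male genes with at least 100 UMIs, the median log2 ratio was 0.51 to Lh and 0.27 to Fsh gonadotropes. The part of this shift in the male order was not tested. By r the next types were thyrotropes in the female library (0.905) and *cga*-expressing cells in the male library (0.902). Genes are not independent replicates, and types with few UMIs give lower values, so the order is a description.

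Gene by gene and per all UMIs, the comparison with Lh gonadotropes gave fewer differences in the female than in the male library, most of them toward gonadotrope-like cells. This contrast depended on the total used. Of 4565 genes with at least 100 UMIs in both types together in the female library, 114 (2.5%) were at least 2-fold higher and 12 (0.263%) at least 2-fold lower in gonadotrope-like cells. In the male library 438 of 4740 genes (9.24%) were higher and 9 (0.19%) lower. In either direction this was 2.76% of the female and 9.43% of the male genes. The median gene was higher by 0.27 in the female and 0.51 in the male library on the log2 scale. With trimmed mean of M-values (TMM) scaling, which sets the bulk of the genes as equal, 45 genes (0.986%) were higher and 29 (0.635%) lower in the female library, and 39 (0.823%) were higher and 68 (1.43%) lower in the male library. The excess of higher genes in the male library was thus turned by the scaling. Per UMIs without the hormone genes and GFP, 62 of the same genes were higher and 24 lower in the female library. In the male library 60 were higher and 32 lower, so that the libraries came close in number. Among 4339 genes compared in both libraries, 68 were higher in both, which is 66.0% of the female and 17% of the male calls, and 4 were lower in both. With TMM scaling, 11 of those 68 were still higher in both, and all 4 were still lower in both. In all, 11 genes were then higher and 17 lower in both libraries, so that the order of the shared calls turned.

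Of the 63 identifiers with a symbol, GFP included, 7 were higher, 5 lower and 35 within 2-fold in the female library, and 9, 2 and 35 in the male library, with the rest under 100 UMIs. The highest named gene was *itm2cb*, which encodes an integral membrane protein. It stood at 7.60 in female and 6.92 in male gonadotrope-like cells and at 1.93 and 1.46 in Lh gonadotropes, a log2 ratio of 1.98 (1.84 to 2.12) and 2.24 (2.11 to 2.38), or 1.69 and 1.67 with TMM scaling. *zgc:122979*, which has only a clone name, stood at 29.4 and 10.6 against 10.2 and 3.25, a log2 ratio of 1.53 (1.47 to 1.60) and 1.71 (1.61 to 1.80), or 1.25 and 1.13 with TMM scaling. Both genes are in the deposited marker list of Fsh gonadotropes, where they were higher still, at 17.0 and 18.4 for *itm2cb* and at 49.0 and 33.6 for *zgc:122979*. Over cells *itm2cb* was uneven, with UMIs in 52.8% (female) and 49.1% (male) of the gonadotrope-like cells.

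The brain aromatase gene *cyp19b*, whose enzyme makes oestrogens from androgens, lay between the gonadotropes in the same order. It stood at 9.79 and 8.34 in gonadotrope-like cells, 6.07 and 3.63 in Lh gonadotropes, and 15.3 and 12.8 in Fsh gonadotropes. The log2 ratio to Lh gonadotropes was 0.69 in the female and 1.20 in the male library, and 0.40 and 0.63 with TMM scaling. A further 3 genes with a symbol were past 2-fold in both libraries per all UMIs and not in both with TMM scaling: *spidr* (1.33 and 1.27, or 1.05 and 0.70 with TMM), carbonic anhydrase 1 (1.23 and 1.39, or 0.94 and 0.81), and the heat shock gene *HSPA2* with the identifier ENSORLG00000026984 (1.60 and 1.05, or 1.31 and 0.48). The same symbol is given to ENSORLG00000028255, which was more abundant. It stood at 10.7 and 10.9 in gonadotrope-like cells against 3.40 and 5.59 in Lh gonadotropes. The deposited label marks *HSPA2* as 1 of many, and how reads were divided among the copies is not known.

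Among the named genes, *lhb* was the one that was at least 2-fold lower in both libraries, with a log2 ratio of -1.35 (-1.36 to -1.33) in the female and -1.54 (-1.55 to -1.52) in the male library. In the female library alone, *tshba* (-1.54) and 1 of the 2 genes named *crabp1a* (-3.66, 19 against 266 UMIs) were lower still. The ratio of *cga* was -0.95 and -0.91, inside the 2-fold limit per all UMIs and past it with TMM scaling (-1.24 and -1.48). GFP gave -0.85 and -1.28. *crtac1a* and *qpct*, 2 further markers of Lh gonadotropes in the deposited table, differed less than *lhb*. Per all UMIs *crtac1a* stood at 33.1 and 28.5 against 28.2 and 27.3, and *qpct* at 12.0 and 13.1 against 14.0 and 13.8. Per UMIs without the hormone genes and GFP, *crtac1a* was at 38.6 and 34.4 against 38.1 and 44.7. By the same measure *qpct* was at 14.0 and 15.8 against 19.0 and 22.6. With TMM scaling the ratio of *crtac1a* was -0.05 and -0.51 and that of *qpct* -0.51 and -0.65.

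**Figure D4:**
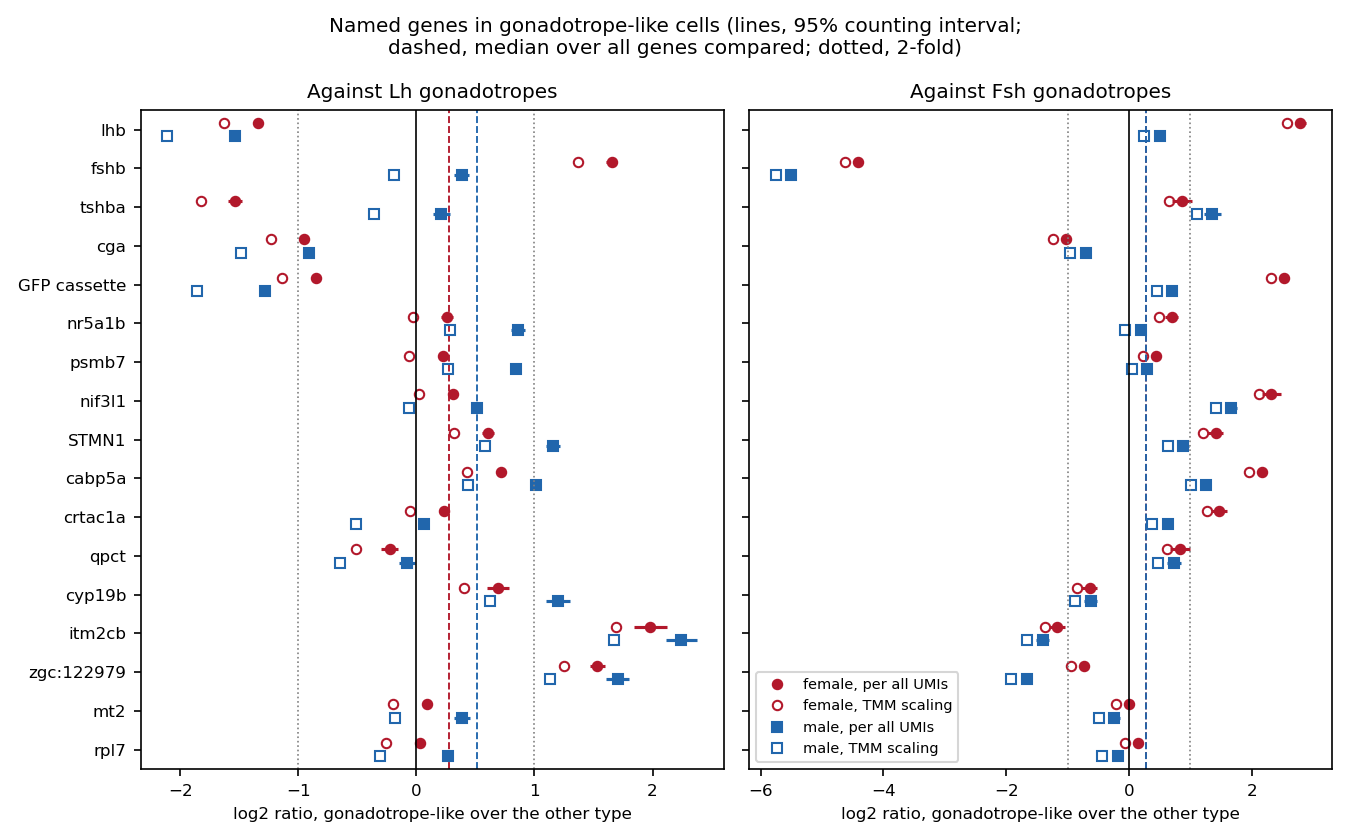
log2 ratio of 17 named genes in gonadotrope-like cells over Lh gonadotropes (left) and over Fsh gonadotropes (right), for the female library (red circles) and the male library (blue squares), per all UMIs (filled, with the 95% counting interval) and with TMM scaling (open). Dashed lines are the medians over all genes compared and dotted lines mark 2-fold. Of the genes plotted, only *itm2cb* and *zgc:122979* are more than 2-fold higher than in Lh gonadotropes in both libraries under both scalings, and *fshb* lies furthest to the left over Fsh gonadotropes.

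Per all UMIs, a larger share of genes was past 2-fold against Fsh than against Lh gonadotropes in the female library (11.2% in either direction). In the male library the share was smaller (7.66%), an order that turned with TMM scaling. In the female library 300 of 3168 genes (9.47%) were at least 2-fold higher and 54 (1.7%) lower in gonadotrope-like cells, and in the male library 185 of 2887 (6.41%) and 36 (1.25%). The median gene was higher by 0.28 and 0.27 on the log2 scale. With TMM scaling 185 genes (5.84%) were higher and 80 (2.53%) lower in the female library, and 73 (2.53%) and 53 (1.84%) in the male library. In the male library both of these shares were thus above those against Lh gonadotropes (0.823% and 1.43%). Among 2801 genes compared in both, 85 were higher in both, 35.6% of the female and 48.3% of the male calls, and 26 were lower in both. With TMM scaling 33 were higher and 37 lower in both, so that the excess of shared higher genes did not hold.

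The gene *fshb* was the lowest of the named genes, with a log2 ratio of -4.41 (-4.44 to -4.39) in the female and -5.50 (-5.55 to -5.45) in the male library. The ratio was -1.17 and -1.41 for *itm2cb*, -1.36 and -1.16 for *arrdc3a*, which encodes an arrestin-domain protein, and -1.94 and -1.84 for carbonic anhydrase 1. Higher in both were *nif3l1* (2.32 and 1.66), *cabp5a* (2.16 and 1.26), *abhd15a* (1.39 and 1.02) and the invariant chain gene of major histocompatibility complex (MHC) class II, CD74 (1.34 and 1.15). With TMM scaling *nif3l1* was at 2.11 and 1.41 and *cabp5a* stayed past 2-fold in both libraries, while *abhd15a* was at 1.18 and 0.76 and CD74 at 1.13 and 0.90. *lhb* was 6.90-fold higher in the female library and 1.42-fold higher in the male library, where 40 of the 198 Fsh gonadotropes had *lhb* above background against 4 of 72 in the female library.

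The position of gonadotrope-like cells relative to Lh and Fsh gonadotropes depended on the genes used: per all UMIs they lay between for most genes higher in Fsh gonadotropes, and above both for most genes higher in Lh gonadotropes. In the female library 212 genes were at least 2-fold higher in Fsh than in Lh gonadotropes, and in 193 of them (91.0%) the gonadotrope-like level lay between. In the male library this held for 223 of 277 genes (80.5%). Taking Lh gonadotropes as 0 and Fsh gonadotropes as 1 on the log2 scale, the median position was 0.446 in the female and 0.703 in the male library. Per UMIs without the hormone genes and GFP it was 0.308 for 211 genes and 0.417 for 130 genes. Of the genes higher in Lh than in Fsh gonadotropes, the gonadotrope-like level lay between in 98 of 327 (30.0%) in the female and 15 of 61 (24.6%) in the male library, and above both types in 227 and 46. Without the hormone genes and GFP in the total, it lay between in 174 of 328 and 134 of 194 genes and above both in 151 and 55, so that the order of these shares turned. A type with a level between those of others and a mixture of cells of each kind give the same sums, and they cannot be told apart from these positions.

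Against the other types pooled, without gonadotropes and red blood cells (1017 female and 1708 male cells), 681 of 6354 genes (10.7%) were at least 2-fold higher and 699 (11%) lower in the female library, and 861 of 7222 (11.9%) and 1005 (13.9%) in the male library. With TMM scaling the counts were 543 (8.55%) and 756 (11.9%) in the female library and 589 (8.16%) and 1204 (16.7%) in the male library. Of the 6253 genes compared in both, 546 were higher in both and 610 lower in both, and 425 and 676 with TMM scaling. The named genes higher in both included *nr5a1b*, 9.96-fold and 23.0-fold, *STMN1*, 7.19-fold and 12.2-fold, and *psmb7*, 6.88-fold and 11.4-fold. GFP (5.89-fold and 7.46-fold), *lhb* (5.21-fold and 6.87-fold) and *nif3l1* (4.63-fold and 8.38-fold) were higher as well.

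Hormone genes of the other cell types were low. The prolactin gene *prl* stood at 17.6 and 19.3 in gonadotrope-like cells against 2475 and 1944.9 in lactotropes, and at 14.6 and 16.0 in Lh gonadotropes. The growth hormone gene *gh* stood at 5.17 and 8.18 and the somatolactin gene *sl* at 2.16 and 1.24. *pomca*, the precursor gene of melanotropes and corticotropes, was at 23.4 and 27.5, of which 1 female cell held 2084 of the 5968 UMIs. The 5 deposited markers of red blood cells summed to 4.06 and 4.32 in gonadotrope-like cells against 6239 and 5762 in red blood cells, with 3 and 4 of the 5 genes under 1 per 10000 and none at 0. The 5 markers of macrophages summed to 15.1 in the female and 4.51 in the male library, against 682 and 423 in macrophages, and the 5 markers of *cga*-expressing cells to 100.03 and 94.2 against 366 and 337. Of these last sums, *cabp5a* alone gave 94.9 and 91.6, against 311 and 282 in *cga*-expressing cells. In gonadotrope-like cells, 2 and 3 of the 5 genes were under 1 per 10000.

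Between the libraries few genes of the gonadotrope-like cells were past 2-fold. Most were higher in the female library per all UMIs, but not with exon counts. Of 4199 genes with at least 100 UMIs, 50 (1.19%) were at least 2-fold higher in the female and 9 (0.214%) in the male library, and the median log2 ratio was 0.016. With TMM scaling 50 and 10 genes (0.238%) were past 2-fold. Exon counts gave 79 and 121 genes, so that the excess turned to the male library, and thinned cells gave 74 and 30. The limit of 100 UMIs was set on all UMIs here too. Some genes may thus rest on few exon UMIs, or on a sum of 0 set to 3 counts. The part of such genes in the turn was not tested. The share past 2-fold in either direction was 1.41%, against 3.35% in Lh gonadotropes, 1.71% in Fsh gonadotropes and 1.87% in lactotropes, which were compared in the same way. Of the 50 genes higher in the female library, 48 could be compared in Lh gonadotropes and 34 of them were higher there too, against 3 of 16 in Fsh gonadotropes and 6 of 25 in lactotropes. Over all genes compared, 157 of 5041 were higher in the female library in Lh gonadotropes, 14 of 1466 in Fsh gonadotropes and 20 of 4233 in lactotropes. The median log2 ratios of these types were 0.25, 0.04 and -0.09.

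The hormone genes of this type differed in opposite directions between the libraries. *fshb* was 3.48-fold higher in the female library, a log2 ratio of 1.80 (1.74 to 1.85), against 0.53 in Lh gonadotropes, 0.71 in Fsh gonadotropes and 0.68 in lactotropes. This is a ratio of sums, and 60 of the 597 female cells held 74.7% of the female *fshb* UMIs. The median gonadotrope-like cells were closer, at 7.99 in the female and 5.27 in the male library. *lhb* was lower in the female library, at -0.68 (-0.70 to -0.66), against -0.88 in Lh gonadotropes and -0.39 in lactotropes. In the sums, *cga* differed by 0.03, *tshba* by -0.04 and *nr5a1b* by 0.16. The median cell held *tshba* at 2.86 in the female and 0.63 in the male library.

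The MHC class II gene *Orla-DCA* and the invariant chain gene CD74 take part in antigen presentation and are known from macrophages and other immune cells. Both were higher in the female library, by 2.27 (1.67 to 2.92) and 1.73 (1.61 to 1.85) on the log2 scale. *Orla-DCA* stood at only 0.698 against 0.145 per 10000. The difference was of the same size in Lh gonadotropes (2.54 and 1.84) and near 0 in lactotropes (0.03, on under 100 UMIs, and 0.13). CD74 stood at 13.1 in female gonadotrope-like cells, second to macrophages (291) of the 13 types. *zgc:122979* (1.47) and the metallothionein gene *mt2* (1.33), whose protein binds zinc and copper, were higher as well, and again in Lh gonadotropes (1.64 and 1.63). In lactotropes *zgc:122979* was higher to a like extent (1.61) and *mt2* less so (0.43). The named gene higher in the male library was *abhd15a* (-1.16), at -1.02 in Lh gonadotropes. Sex, the pool of fish and the library cannot be told apart here.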

How the data were processed

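Pituitary cells of 24 female and 23 male medaka were pooled by sex and sequenced as 1 library each. The submitters' processing notes name Cell Ranger and Seurat without versions. For the genome build and gene annotation of these tables, the entry is: not given in the sources used here. The authors deposited UMI counts per gene and cell (18377 genes in the female and 18660 in the male matrix), exon, intron and spanning counts, the cell types, and marker tables, after removal of cells with high doublet scores. The mean and p columns of the marker tables hold the authors' own comparison and were not used.

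UMIs were summed per type and library and given per 10000 UMIs with exact Poisson intervals, and shares of cells with Clopper-Pearson intervals (95%, counting error only). Genes with at least 100 UMIs in the compared groups together were called at 2-fold. This limit was applied to all UMIs of the groups, also where exon counts or thinned cells were used. A sum of 0 was set to 3 counts, relative to all UMIs of the type. TMM factors came from edgeR 4.0.16 (R 4.3.3), used for scaling only. Sums, intervals and thinning used pandas 2.3.3, scipy 1.17.1 and numpy 2.4.6 under Python 3.11.15, and plots matplotlib 3.10.9. The ratio code was tested on simulated sums, there with the median log2 ratio subtracted before calling. The thinning code was run on real cells and checked only for the total of each cell. One male cell whose label was misspelled was joined to the Lh gonadotropes, and red blood cells were left out of the other types. Symbols were known for 63 identifiers, from the deposited marker tables and the primer list of the study, and only 10 of 377 gene symbols of the pathway and cell type lists could be matched, so lists of receptors, signalling and stress genes gave no values. Named genes were all matched list genes and the genes past 2-fold in the same direction in both libraries (10 and 10 against Lh gonadotropes, 6 and 6 against Fsh gonadotropes, 10 higher against the other types) or between the libraries (6 and 6), where they had a symbol. Other genes with a symbol are named as further examples, after their values were seen. The members and lists were chosen with earlier results of these data known. Alternatives were the mean over cells, hormone genes out of the total, exon counts, deep cells left out, thinning to 2000 UMIs, a minimum of 20 UMIs, TMM scaling and the 95th percentile of lactotropes, and, chosen after seeing the data, GFP also out of the total and shared barcodes left out.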

Additional observations from a re-analysis of the deposited data

Results flagged for a closer look

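*tshba* went in opposite directions against Lh gonadotropes in the libraries. Its log2 ratio was -1.54 in the female library, where Lh gonadotropes held 34.3 and gonadotrope-like cells 11.8 per 10000 UMIs, and 0.21 in the male library, where they held 10.5 and 12.2. The summed level in gonadotrope-like cells was close in the libraries, and that in Lh gonadotropes was not. These sums rested on few cells, since 60 female and 45 male gonadotrope-like cells held 66.0% and 70.4% of the *tshba* UMIs. The median gonadotrope-like cell was below the median Lh gonadotrope in both libraries, at 2.86 against 5.33 in the female and 0.63 against 1.75 in the male library. With 1 library per sex the difference between these ratios was not tested. With TMM scaling the male ratio was -0.36, so that the opposite direction itself depends on the scaling.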

How the results depend on the processing

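No paired analysis was possible because each sex has 1 library. For the same reason no replicate could be left out, and the limits of depth are those of the counting intervals: genes under 100 UMIs were not compared, and differences among rare cells rest on few cells. Among the counts, levels and shares recomputed under an alternative, 100 stayed within the limits set for them and 94 moved, and the cause was not tested. Of the ratios of named genes, 2979 stayed, 124 moved and 2 reversed. Those were *sl* against Fsh gonadotropes in the male library without cells above the 95th percentile of UMIs (0.41) and si:ch211-156l18.7 between the libraries with exon counts (-2.26).

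With TMM scaling, genes higher and lower than in Lh gonadotropes numbered 45 and 29 in the female and 39 and 68 in the male library, and genes higher than in Fsh gonadotropes 185 and 73. With the hormone genes out of the total, 19 genes were lower than in Lh gonadotropes in the female library and 221 higher in the male library, and against Fsh gonadotropes 142 were higher and 92 lower in the female library and 94 higher in the male library. With GFP also out of the total, which was chosen after seeing the data, the counts against Lh gonadotropes were 62 and 24 in the female and 60 and 32 in the male library, and genes higher than in Fsh gonadotropes numbered 185 and 118. Exon counts gave 186 higher and 22 lower genes against Lh gonadotropes and 87 lower against Fsh gonadotropes in the female library, and 79 and 121 between the libraries. No limit was set on exon UMIs themselves, so part of these calls may rest on few of them. Thinning gave 19 lower genes against Lh and 461 higher against Fsh gonadotropes in the female library, and 30 lower between the libraries. A minimum of 20 UMIs gave 528 and 67 genes against Lh gonadotropes, 1330 and 255 against Fsh gonadotropes and 1348 and 1786 against the other types in the female library, 1337 and 67, 829 and 167, and 1601 and 1930 in the male library, and 314 and 142 between the libraries.

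As a mean over cells, the female levels were 135 for *lhb*, 58.1 for *fshb*, 468 for *cga* and 9.64 for *tshba*, and the male levels of *lhb*, *cga* and *tshba* were 185, 467 and 11.5. With exon counts they were 152, 67.8, 499.6 and 14.3 in the female and 248, 19.4, 520.0 and 14.0 in the male library, thinned 135, 57.1, 469 and 9.89, and 188, 18.8, 462 and 11.1. Without the deep cells they were 146, 53.8, 507 and 10.9 in the female library, and *lhb* and *cga* were 225 and 497 in the male library.

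With the 95th percentile of lactotropes as background, the female shares of cells were 63.1% for *lhb*, 42.9% for *fshb*, 40.5% for *tshba*, 98.0% for *cga*, 7.54% for none and 45.7% for at least 2 beta subunit genes, and the male shares 59.7%, 38.7%, 32.9%, 96.6%, 11.7% and 36.0%. Thinned, *fshb*, *tshba*, none and at least 2 were 30.6%, 19.3%, 22.1% and 17.6% in the female and 25.2%, 19.2%, 25.2% and 15.0% in the male library, with *cga* at 84.1% in the latter. Without the deep cells, *lhb*, *cga*, none and at least 2 were 53.8%, 95.9%, 13.0% and 30.1% in the female library, and *cga* was 74.6% in the male library.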

Other observations

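The share of *cga* UMIs that came from introns was higher in gonadotrope-like cells than in Lh gonadotropes in both libraries. It was 1.56% (interval 1.49 to 1.63%) in the female and 1.47% (1.39 to 1.55%) in the male gonadotrope-like cells, against 0.616% (0.588 to 0.646%) and 0.669% (0.646 to 0.693%) in Lh gonadotropes. Fsh gonadotropes held 0.763% and 1.17%, and lactotropes, where *cga* is background, 1.83% and 1.62%. For *lhb* the intron share was 0.586% (0.511 to 0.668%) and 0.460% (0.398 to 0.529%) in gonadotrope-like cells and 0.173% and 0.142% in Lh gonadotropes. Over all genes but the hormone genes and GFP, introns gave 17.1% and 17.7% of the UMIs of gonadotrope-like cells, 14.6% and 14.9% of those of Lh gonadotropes, and 21.8% and 22.4% of those of lactotropes. The part of free RNA in these shares was not tested.

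Among the genes at least 2-fold higher in gonadotrope-like cells than in Lh gonadotropes, 19 of 114 (16.7%) in the female and 89 of 438 (20.3%) in the male library had over 50% of their UMIs from introns, against 10.2% and 10.6% of all genes compared.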
